A study of Mus musculus with 48 samples.

Results

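Joining of Vk gene segments to Jk5 was compared between a v-Abl pro-B line arrested with STI-571 and pre-B cells of the bone marrow. The members were the 3 Igk-bait junction lists titled as the untreated Wapl-degron line and the 3 titled as marrow pre-B cells, 6 of the 48 samples of the series, chosen by their titles. The junctions described are those whose partner lay in the Vk region of chromosome 6 (mm9, 67505630 to 70654171, 3.15 Mb), which holds 102 annotated Vk genes. Each library was made by LAM-HTGTS, in which a primer in a bait segment is extended by linear amplification and the DNA joined to the bait, the prey, is read out as 1 junction per line.

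The arrested line is a v-Abl transformed pro-B line of B6 origin whose genotype is given as Wapl-degron, OsTIR1, Single Igh, Emu-Bcl2 and RAG1 deficient. It was infected with a RAG1/2 retrovirus and held in 3 uM STI-571, an Abl kinase inhibitor that stops the cycling of such lines, for 4 days, without the agents that degrade Wapl. It is a single transformed line, it cannot recombine without the virus, and the Emu-Bcl2 transgene keeps arrested cells alive. The marrow cells came from wild-type 129sv mice, with their own RAG and no transgene. The labels of the marrow samples also carry the line on STI-571, and whether those cells received it cannot be told from them. No label says that replicates came from separate cultures or mice, so the spread below may be technical. DNA was sequenced and no expression was measured, so the cell types were not checked against markers.

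The immunoglobulin kappa light chain is assembled by RAG, which cuts at recombination signal sequences (RSS) beside each segment and joins 1 Vk to 1 Jk. An RSS has a heptamer, a spacer and a nonamer, and RAG pairs the short-spacer signals of Vk genes with the long-spacer signals of Jk genes. The Jk genes lie on the plus strand. A Vk gene on the plus strand joins with deletion of the DNA between, and a Vk gene on the minus strand joins with inversion of it, and a kappa allele can recombine again from a Vk farther out to a Jk farther down. Cohesin extrudes chromatin loops that bring distant Vk genes near Jk, and Wapl takes cohesin off chromatin. Neither group compared received an agent that depletes Wapl.

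The bait was Igkj5, the last functional Jk (chromosome 6, 70673880 to 70673921, plus strand). Its sequence is shown with the nonamer and heptamer of its signal in capitals, because the coding end of Igkj5 starts at the base after that heptamer, followed by the last 20 coding bases and the signal of 6 Vk genes on which the results turn. These are read 5′ to 3′ in the sense of each gene from mm9, and capitals mark heptamer and nonamer.
Igkj5: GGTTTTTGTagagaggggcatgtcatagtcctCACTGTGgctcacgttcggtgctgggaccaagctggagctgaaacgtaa
Igkv2-137: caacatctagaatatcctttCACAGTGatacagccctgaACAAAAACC
Igkv1-135: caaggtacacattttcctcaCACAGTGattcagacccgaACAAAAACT
Igkv4-92: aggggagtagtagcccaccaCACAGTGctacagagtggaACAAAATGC
Igkv18-36: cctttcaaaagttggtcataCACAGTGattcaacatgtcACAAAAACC
Igkv8-24: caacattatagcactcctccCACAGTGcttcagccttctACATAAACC
Igkv3-1: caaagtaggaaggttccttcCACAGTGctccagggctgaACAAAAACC

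A signal with at least 5 of 7 bases of the heptamer CACAGTG, a spacer of 11 to 13 bases and at least 6 of 9 bases of the nonamer ACAAAAACC was found at the end of 97 of the 102 Vk genes, searched in the sense of the gene. The heptamer was complete in 84 genes and the nonamer in 35. Across the 98 tested genes the number of matching bases had a Spearman correlation of 0.18 with the mean share in the arrested line and 0.25 in marrow, as a description over genes that share family sequence. Igkv2-137 and Igkv18-36 both carry the complete heptamer and nonamer, and their usage differed between the groups in opposite directions.

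The arrested libraries held 129848 to 151435 junctions and the marrow libraries 20911 to 32288. No read name occurred in more than 1 of the 12 Igk-bait lists. The libraries were sequenced apart. All marrow libraries came from 1 run with read names in the MiSeq style, and all arrested libraries from another with names in the NextSeq style, so the cell type, the strain, the run and the read length cannot be told apart. The median prey alignment in Vk genes was 62 bases in each arrested library and 116 to 136 bases in marrow. Each distinct joint was listed 13.3 ± 0.26 times (SD, n = 3) in the arrested libraries and 7.81 ± 1.3 times in marrow. Repeated lines may be copies of 1 event or separate events with the same joint, which the lists do not tell. Lines are thus not shown to be independent. Intervals from counts take them as independent, cover counting error only and may be too narrow. The arrested libraries held 8205 to 9351 distinct joints in Vk genes and the marrow ones 2723 to 3077. A distinct joint has its own prey position, strand, Igkj5 end and number of bases inserted or overlapping. A distinct junction has its own prey position, strand and B_Rend, the bait end away from the joint. In the 6 libraries 98.9% to 99.6% of lines had the most common B_Rend of their library. Distinct junctions are thus nearly distinct prey positions, with different joints at 1 position merged. Counting either once compares libraries of unequal depth, and how far depth moves those values was not tested.

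Most listed junctions lay in the Vk region in both groups. It took 90.4%, 89.2% and 90.4% of all junctions in arrested replicates 1 to 3, against 95.1%, 95.2% and 95.4% in marrow. The means were 89.98 ± 0.70% and 95.3 ± 0.16% (SD, n = 3), and the groups did not overlap (exact permutation p = 0.1, two-sided, the smallest that 3 against 3 can give, 0.11 after Benjamini-Hochberg adjustment over 11 measures). With each distinct joint counted once the shares were 73.7% and 93.0%. Counting distinct junctions once gave 59.4% and 91.2%, so the difference was larger under both ways of counting. It was smaller with prey alignments of 50 to 90 bases, at 88.6% against 91.9%. Junctions on other chromosomes made up 1.95 ± 0.15% of the arrested lists and 0.077 ± 0.033% of the marrow lists. Past Igkj5 a site at 70701774, 27.9 kb farther on, held 5.74 ± 0.57% of arrested and 1.81 ± 0.22% of marrow junctions. The last base of a complete Jk-type heptamer, CACTGTG, lies at that position. Of the junctions in the Vk region or between it and Igkj1, the Vk region held 99.6% in the arrested line and 99.5% in marrow, and a higher arrested share turned to a lower one when distinct joints were counted once (99.2% against 99.3%).

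Arrested cells joined nearer to Jk than marrow cells. With the region cut into 3 zones of equal length, the proximal zone, which holds 41 genes, took 56.8%, 56.0% and 54.9% of Vk-region junctions in the arrested replicates and 42.1%, 44.3% and 43.0% in marrow. The means were 55.9 ± 0.94% and 43.1 ± 1.1% (n = 3, exact permutation p = 0.1, adjusted 0.11), a difference of 12.8 percentage points with no overlap. The 95% Wilson interval of the shallowest marrow library was 41.4% to 42.8%. It takes lines as independent, which is not shown, so it may be too narrow and does not bear on the spread between libraries. Every arrested library lay above every marrow library here.

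Both other zones held less in the arrested line. The middle zone, with 33 genes, took 21.2%, 23.2% and 25.05% in the arrested replicates against 31.3%, 29.8% and 30.6% in marrow (means 23.2 ± 1.9% and 30.6 ± 0.75%). The distal zone, with 28 genes, took 21.9%, 20.8% and 20.03% against 26.6%, 25.9% and 26.5% (means 20.9 ± 0.97% and 26.3 ± 0.35%). Both differences had an exact permutation p of 0.1 (n = 3, adjusted 0.11) and neither pair of groups overlapped. The middle difference shrank to 26.8% against 30.5% with prey alignments of 50 to 90 bases, and to 31.8% against 34.5%, with overlap, when the zones were cut to hold equal numbers of genes. The distal difference shrank to 23.7% against 25.2% when each distinct joint was counted once (exact permutation p = 0.2, n = 3). With each distinct junction counted once the groups overlapped, at 26.1% and 26.8% (exact permutation p = 0.3, n = 3). The nearest stretch, 0 to 0.5 Mb from the end of the bait, held 20.96 ± 1.0% of arrested and 18.1 ± 0.45% of marrow junctions. The next one, 0.5 to 1 Mb away, differed most, with 31.98 ± 0.19% against 22.7 ± 0.54%, and the farthest stretch, beyond 3.0 Mb, differed the other way, with 2.00 ± 0.62% against 4.603 ± 0.056%.

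**Figure D1:**
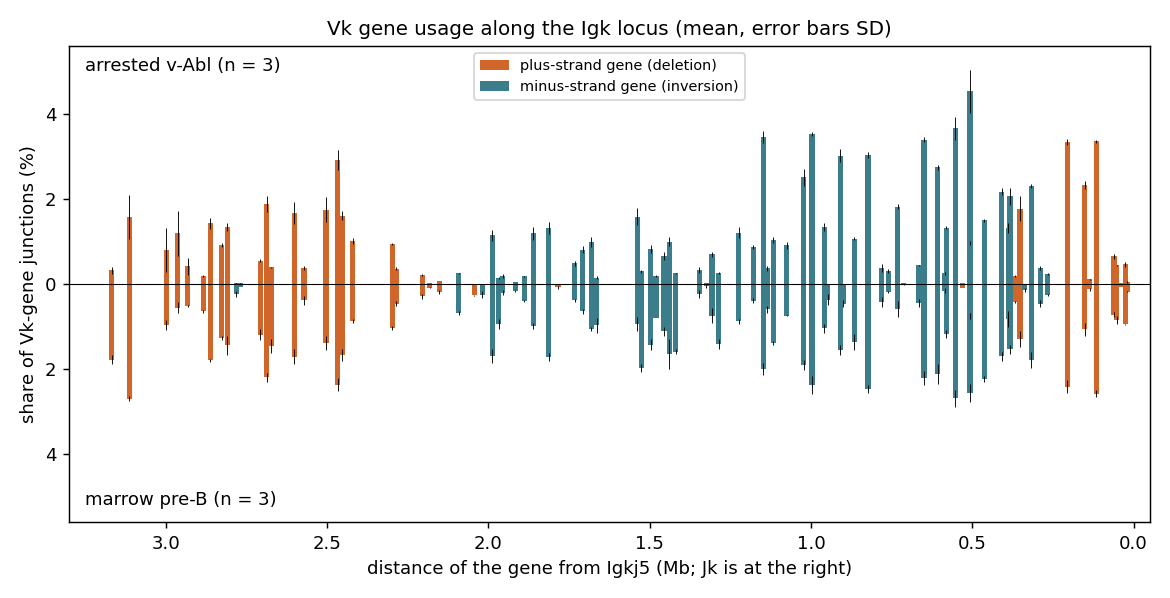
Mean share of Vk-gene junctions of each annotated Vk gene (vertical axis, %) by its distance from Igkj5 (horizontal axis, Mb), arrested v-Abl upward and marrow pre-B downward, bars coloured by gene strand and error bars 1 SD over 3 libraries. The tallest arrested bar is Igkv8-24 at 0.507 Mb, with 4.53% against 2.56% in marrow, and the leftmost bar, Igkv2-137, is 0.32% against 1.77%.

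Distance summed over junctions showed the same. Measured from the bait end (B_Rend) to the junction, the median distance was 0.960, 0.997 and 0.997 Mb in the arrested replicates and 1.29, 1.22 and 1.29 Mb in marrow. The group means were 0.985 ± 0.022 and 1.27 ± 0.036 Mb (n = 3, exact permutation p = 0.1, adjusted 0.11). The upper quartile moved more than the lower one, 1.76 against 2.29 Mb for the former and 0.522 against 0.598 Mb for the latter. The proximal share differed as much without the near-identical genes described below. Over the 34 genes whose ends differ clearly from all others, the proximal zone held 57.8% of arrested and 43.0% of marrow junctions. With prey alignments of 50 to 90 bases in every library it held 51.9% and 42.2%, with distinct joints counted once 46.0% and 37.9%, and with distinct junctions counted once 44.7% and 38.1%. Each of these kept the groups apart (exact permutation p = 0.1, n = 3).

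Strand followed position. A prey on the minus strand of the read marks a join to a plus-strand gene, by deletion, and 99.8% of junctions in Vk genes had the orientation that the annotated strand of the gene implies in both groups. Deletional joins were 35.4%, 33.5% and 32.2% of Vk-region junctions in the arrested replicates and 36.6%, 36.9% and 37.5% in marrow. The means, 33.7 ± 1.6% and 37.0 ± 0.44%, differed without overlap (n = 3, exact permutation p = 0.1, adjusted 0.11). The distal zone is almost all plus-strand (24 of 28 genes) and the middle zone almost all minus-strand (31 of 33), while the proximal zone is mixed. Within every zone the deletional share still differed between the groups without overlap, by at most a few percentage points. In the distal zone 99.6% of arrested and 98.8% of marrow junctions were deletional. In the middle zone, whose only plus-strand genes are Igkv10-95 and Igkv13-84, both with an identical copy elsewhere in the region, the values were 0.298 ± 0.016% and 1.27 ± 0.098%, and in the proximal zone 22.9 ± 0.76% and 24.6 ± 0.83%. The overall strand difference turned to 40.8% against 38.6% when each distinct junction was counted once. With each distinct joint counted once it kept its direction but shrank to 35.4% against 35.7%, with overlap. Its size and direction thus rest on how lines are counted.

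Among genes, the proximal difference lay mostly in minus-strand genes, which join by inversion. The 28 minus-strand genes of the proximal zone held 33.0 ± 0.70% of Vk-gene junctions in marrow and 43.4 ± 0.19% in the arrested line, while the 13 plus-strand genes there held 11.5 ± 0.53% and 13.7 ± 0.61%. The 31 minus-strand genes of the middle zone held 28.0 ± 0.74% in marrow and 20.9 ± 1.7% in the arrested line. The 24 plus-strand genes of the distal zone held 26.9 ± 0.26% and 22.0 ± 0.93%. In each of these 4 blocks the 3 arrested values lay outside the marrow range.

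**Figure D2:**
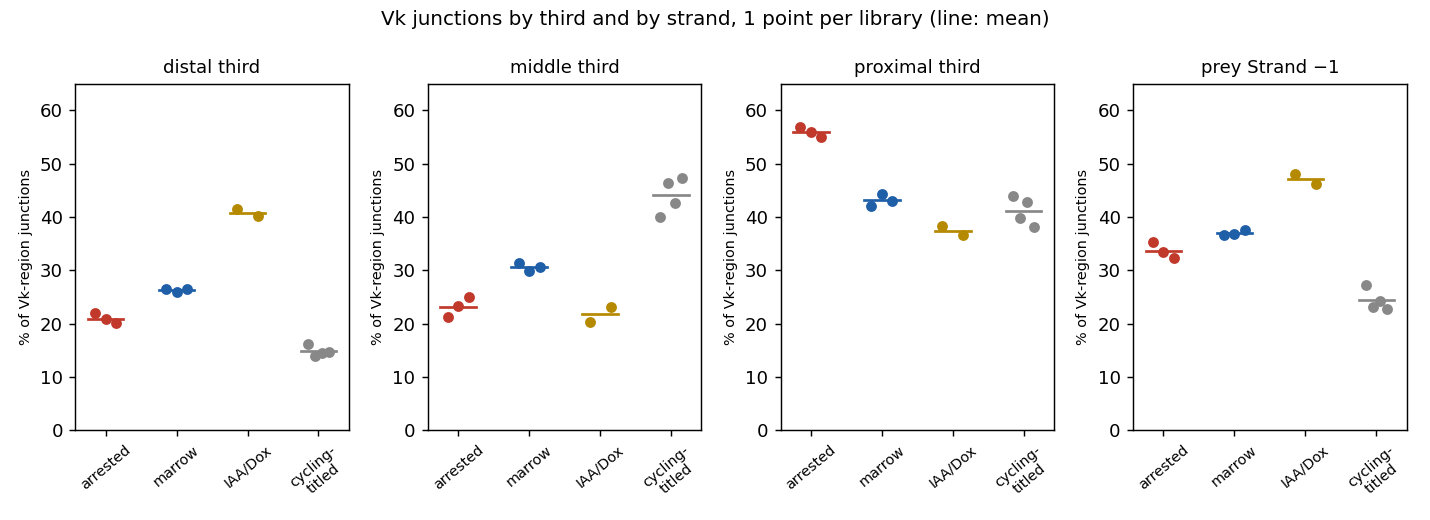
Percent of Vk-region junctions in each of 3 equal zones of the Vk region and with a deletional prey orientation (Strand −1), 1 point per library and a line at the group mean, for arrested v-Abl (3), marrow pre-B (3), the same v-Abl line after Wapl depletion (IAA/Dox, 2) and the cycling-titled v-Abl line (4). The 3 arrested libraries, at 54.9% to 56.8%, lie above all others in the proximal zone.

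Other Igk-bait libraries of the series were set beside these as a description, with no test. The same Wapl-degron line given IAA and doxycycline to deplete Wapl (2 libraries) had 38.2% and 36.6% of Vk-region junctions in the proximal zone and 41.5% and 40.2% in the distal zone. The cycling-titled v-Abl line, of 129sv origin like the marrow cells, had 38.1% to 43.9% in the proximal zone and 39.9% to 47.3% in the middle zone over 4 libraries of 584 to 3973 Vk-region junctions. Its labels also list STI-571, so the word cycling in its title could not be checked. Gene by gene, the share of usage that would have to move to turn 1 library into another was 3.99% to 7.80% within the arrested group, 5.79% to 5.96% within marrow and 21.2% to 23.6% between them. Cycling-titled libraries were 32.5% to 42.4% away from arrested ones and 35.8% to 43.8% away from marrow ones. They hold 525 to 3444 junctions in Vk genes, against 17881 to 124861 in the 2 groups compared. Counting error raises this distance in small libraries, by an amount that was not tested.

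Usage was also narrower in the arrested line than in marrow. The effective number of Vk genes, the inverse of the summed squared gene shares, was 46.8, 47.6 and 46.9 in the arrested replicates and 64.9, 62.4 and 62.5 in marrow (means 47.1 ± 0.46 and 63.3 ± 1.4, n = 3, exact permutation p = 0.1, adjusted 0.11). In the other v-Abl libraries, of fewer junctions than the arrested ones, the number was lower still. It was 33.5 to 38.3 in the cycling-titled libraries and 35.1 and 35.9 in the IAA/Dox ones. Each arrested library drew 50% of its Vk-gene junctions from 17 genes, and each marrow library from 24 or 25. The most used gene of every arrested library was Igkv8-24, with 4.11% to 5.09%. In marrow the leading gene was Igkv1-135 in replicate 1 and Igkv8-27 in replicates 2 and 3, with 2.68% to 2.82%. With prey alignments of 50 to 90 bases the effective numbers were 48.4 and 57.9, still without overlap. With each distinct junction counted once they were 76.5 and 85.2, and with each distinct joint counted once 68.7 and 77.6, again without overlap. Counting once limits a much used gene to its distinct joints or positions, so the number rose in both groups. The smaller difference thus cannot tell what repeated lines add.

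Of the 8 most used genes, 6 were shared. Igkv8-24, Igkv8-27, Igkv5-48, Igkv3-7, Igkv3-12 and Igkv5-39 were in the first 8 of both groups, all within 1 Mb of Jk. The arrested list was completed by Igkv4-57 and Igkv6-32, and the marrow list by Igkv1-135 and Igkv14-111, which lie 3.11 and 2.47 Mb away. The 8 most used genes held 28.3% of Vk-gene junctions in the arrested line and 20.1% in marrow. Across 98 genes the log2 mean shares of the groups had a Spearman correlation of 0.83, given as a description.

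Gene usage was then tested with limma voom on junctions per gene (50 bp on either side), relative to all junctions in Vk genes. Of 98 genes with at least 10 junctions over the 6 libraries, 65 passed an adjusted p of 0.05, which is 66.3%, with 24 higher in the arrested line (24.5%) and 41 lower (41.8%). The libraries of the groups did not overlap at 76 genes (77.6%). The count fell to 35 (14 higher, 21 lower) with each distinct junction counted once, and to 35 (8 higher, 27 lower) with prey alignments of 50 to 90 bases. That length limit removed a larger part of the marrow lines. At Igkv8-24, for example, it left 59 of 434, 125 of 683 and 128 of 650 marrow junctions. In the arrested replicates it left 2849 of 6359, 2344 of 5072 and 1911 of 4379. How far lower counts reduce the calls was not tested. The median log2 fold change over all 98 genes was -0.20. Since shares sum to 100%, a higher share of some genes lowers that of others by construction. By zone, 19 of 40 tested proximal genes were higher and 11 lower (median log2 fold change 0.34), against 4 higher and 19 lower of 32 in the middle zone (-0.68) and 1 higher and 11 lower of 26 in the distal zone (-0.44).

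The genes that rose most were Igkv18-36, Igkv4-57-1, Igkv3-10, Igkv12-44 and Igkv8-24, with voom adjusted p-values of 8.6e-05, 0.00019, 5.4e-05, 5.4e-05 and 0.00054. Igkv18-36 (chromosome 6, 69942459 to 69942971, minus strand), the single member of its family, took 1.76%, 1.87% and 1.84% of Vk-gene junctions in the arrested replicates and 0.520%, 0.443% and 0.811% in marrow, a log2 fold change of 1.68 ± 0.18 (SE). All arrested values lay above the highest marrow value. Igkv3-10 (70522627 to 70523224, plus strand) had 2.40%, 2.36% and 2.23% against 0.900%, 1.08% and 1.21%. Igkv12-44 (69764625 to 69765094, minus strand) had 2.86%, 3.03% and 3.17% against 1.52%, 1.69% and 1.47%. Igkv8-24 (70166852 to 70167415, minus strand) had 5.09%, 4.396% and 4.11% against 2.43%, 2.44% and 2.80%. Igkv4-57-1 (69494353 to 69494886, minus strand) had 0.855%, 0.914% and 0.833% against 0.459%, 0.332% and 0.388%. The 5 were picked among called genes whose libraries did not overlap between the groups, so their separation was fixed by that choice. Of them 4 lie within 1 Mb of Jk. The stretches of 0 to 0.5 Mb and 0.5 to 1 Mb hold 19 and 21 of the 102 annotated genes.

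The other leading genes of the arrested line were also called higher. Igkv5-48 held 3.53 ± 0.044% in the arrested line and 2.37 ± 0.21% in marrow (log2 fold change 0.58 ± 0.077 SE). Igkv8-27 held 3.66 ± 0.28% and 2.69 ± 0.20% (0.44 ± 0.10), and Igkv6-32 held 3.40 ± 0.064% and 2.20 ± 0.16% (0.62 ± 0.074). Igkv4-57, at 1.15 Mb, held 3.45 ± 0.14% and 2.00 ± 0.13% (0.78 ± 0.081). Igkv3-7, Igkv3-12 and Igkv5-39 rose by 0.38, 0.47 and 0.30 on the log2 scale. Igkv14-111 was the 1 distal gene called higher, with 2.91 ± 0.24% against 2.37 ± 0.15% (voom adjusted p = 0.032), and its call was lost in 9 of 19 alternative fits, among them those without any 1 of the 3 marrow libraries (adjusted p 0.057 to 0.14). With prey alignments of 50 to 90 bases, Igkv5-48, Igkv8-27, Igkv6-32, Igkv3-7, Igkv3-12, Igkv5-39 and Igkv14-111 kept their direction but no longer passed (adjusted p 0.12 to 0.68). Their mean shares then ran from nearly equal at Igkv3-7 (2.84% against 2.74%) to 3.26% against 2.66% at Igkv5-48. Igkv8-24, Igkv4-57, Igkv18-36, Igkv4-57-1, Igkv3-10 and Igkv12-44 still passed. The length limit also leaves fewer marrow junctions, and what that does to the calls was not tested.

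**Figure D3:**
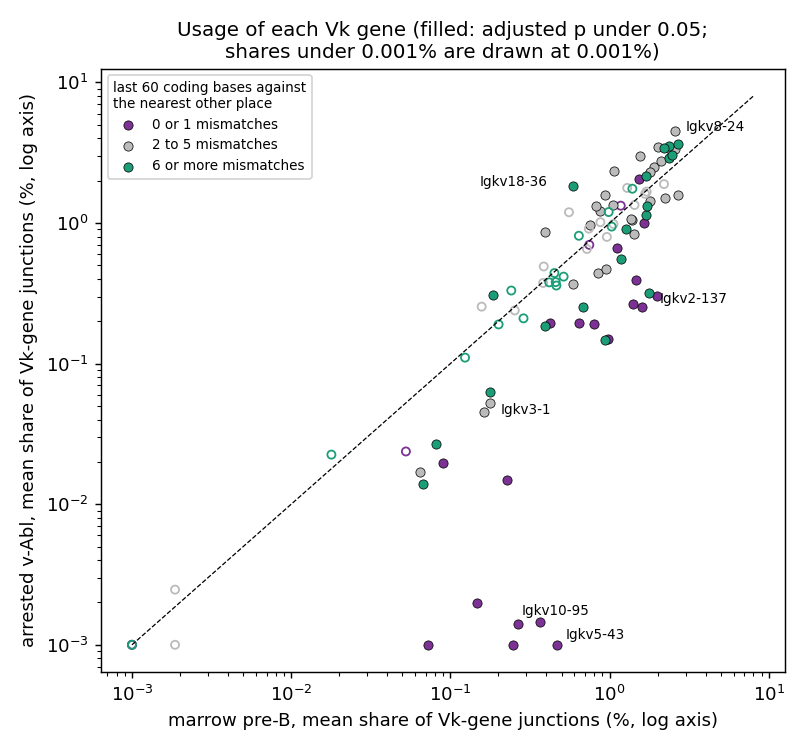
Mean share of Vk-gene junctions of each Vk gene in marrow pre-B (horizontal, %, log axis) and arrested v-Abl (vertical, %, log axis), filled where voom called it and coloured by how many of its last 60 coding bases differ from the nearest other place in the region, with the dashed line marking equal shares and shares under 0.001% drawn at 0.001%. The genes far below the line at the bottom, such as Igkv5-43 (0.00056% against 0.464%), are genes with 0 or 1 differing bases.

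The 2 genes farthest from Jk were lower in the arrested line. Igkv2-137 (67505630 to 67506210, plus strand), the annotated Vk gene farthest from Jk at 3.17 Mb, took 0.404%, 0.312% and 0.244% of Vk-gene junctions in the arrested replicates and 1.67%, 1.86% and 1.79% in marrow. Marrow was 5.54-fold higher, with a log2 fold change of -2.48 ± 0.17 (SE, voom adjusted p = 1.0e-05). The 95% Wilson interval of the lowest arrested library, with lines taken as independent, was 0.216% to 0.276%. Its end differs in 9 of 60 bases from the nearest other gene, and the difference was as large with prey alignments of 50 to 90 bases (0.34% against 2.02%). The next gene inward, Igkv1-135 (67559739 to 67560502, plus strand), had 2.07%, 1.63% and 1.04% against 2.68%, 2.65% and 2.76%. It passed narrowly (log2 fold change -0.80 ± 0.31, adjusted p = 0.049). Its call was lost without arrested replicate 2 and without each marrow library in turn (adjusted p 0.054 to 0.14). Arrested replicate 3 was low at several such genes. Igkv1-133 had 1.22%, 0.954% and 0.215% in the arrested replicates and 0.826% to 1.06% in marrow, and was not called. Its neighbour Igkv1-132 was higher in the arrested mean, with 1.67%, 1.30% and 0.610% against 0.520%, 0.447% and 0.699%, and was not called either.

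The genes next to Jk fell too, against the trend of their zone. Igkv3-1 (70653572 to 70654171, plus strand), the nearest at 0.020 Mb, took 0.0673%, 0.0598% and 0.0301% in the arrested replicates and 0.162%, 0.182% and 0.186% in marrow (log2 fold change -1.82 ± 0.34, voom adjusted p = 0.0016). These rest on 32 to 84 junctions in the arrested libraries and 29 to 51 in marrow. Igkv3-2 (70648462 to 70649061), at 0.025 Mb, had 0.525%, 0.471% and 0.411% against 0.934%, 0.969% and 0.945% (-1.03 ± 0.13, adjusted p = 0.00018). Igkv3-3 and Igkv3-4, the next genes away from Jk, were lower by 1.96 and 0.95 on the log2 scale, the former on 11 to 25 junctions in each library. With prey alignments of 50 to 90 bases Igkv3-1 kept its direction on 2 to 39 junctions per library but no longer passed (adjusted p = 0.21), while Igkv3-2 still passed. Within the Igkv3 family of 8 genes, 4 were thus lower and 3 higher (Igkv3-7, Igkv3-10 and Igkv3-12, at 0.116 to 0.205 Mb), beside 41.8% lower and 24.5% higher over all tested genes. The family as a whole held 8.20 ± 0.50% in marrow and 10.1 ± 0.24% in the arrested line.

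The steepest falls were at genes that are copies of one another. The 5 lowest fold changes among genes called without overlap were Igkv5-43, Igkv10-94, Igkv5-45, Igkv10-95 and Igkv13-84, with voom adjusted p-values of 9.2e-06 to 0.00015. Igkv5-43 had 1, 1 and 0 junctions in the arrested replicates and 99, 110 and 103 in marrow. Igkv10-94 had 0, 2 and 0 against 52, 86 and 34. Igkv5-45 had 1, 3 and 1 against 93, 86 and 62, Igkv10-95 had 3, 1 and 1 against 46, 75 and 62, and Igkv13-84 had 0, 0 and 1 against 19, 12 and 16. At 0 to 3 junctions a fitted fold change depends on the prior count, so none is given. The last 60 coding bases of each of these genes occur unchanged at another place in the Vk region, as shown for both pairs, where all letters are alike.
Igkv5-43: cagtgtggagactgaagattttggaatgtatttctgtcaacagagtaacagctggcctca
Igkv5-45: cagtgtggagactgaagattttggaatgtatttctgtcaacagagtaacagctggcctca
Igkv10-94: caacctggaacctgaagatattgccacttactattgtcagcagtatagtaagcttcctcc
Igkv10-95: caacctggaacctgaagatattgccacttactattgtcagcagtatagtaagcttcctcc

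A prey read must run past the shared stretch to tell such copies apart. The 312 marrow junctions at Igkv5-43 had prey alignments of 208 to 621 bases and the 241 at Igkv5-45 of 140 to 565 bases, and none of either was as short as 90. Over all Vk genes 21.02% of arrested junctions and 68.4% of marrow junctions had prey alignments above 90 bases. Limited to 50 to 90 bases, marrow had 0 junctions at Igkv5-43, Igkv5-45 and Igkv13-84, and the arrested libraries 1, 1 and 0. At Igkv10-94 marrow still had 8, 20 and 7, against 0, 2 and 0. The other v-Abl libraries, also of short reads, listed all 5 genes at 0. The cycling-titled ones hold 525 to 3444 junctions in Vk genes and the IAA/Dox ones 15258 and 23374. In the smallest of these a gene at the marrow shares could go unseen. Whether the zeros follow read length, strain or depth was not tested.

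The genes were then grouped by how near their closest copy is. The 24 genes with 0 or 1 differing bases held 17.4 ± 1.3% of Vk-gene junctions in marrow and 7.76 ± 0.21% in the arrested line, and of 22 tested 18 were lower and 1 higher. The 44 genes with 2 to 5 differing bases held 50.8 ± 0.79% and 58.9 ± 1.2%, with 15 higher and 12 lower of 43. The 34 genes with 6 or more held 31.8 ± 0.50% and 33.3 ± 1.0%, with 8 higher and 11 lower of 33. Beside 24.5% higher and 41.8% lower over all tested genes, the last class lies near the background. With prey alignments of 50 to 90 bases in all libraries the first class held 10.1 ± 1.4% in marrow and 6.57 ± 0.30% in the arrested line. The class with 6 or more then turned, to 35.1 ± 1.3% in marrow and 31.5 ± 1.1% in the arrested line, without overlap. How much of each gene's difference follows the read length was not tested further, and the strain differs between the groups as well.

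**Figure D4:**
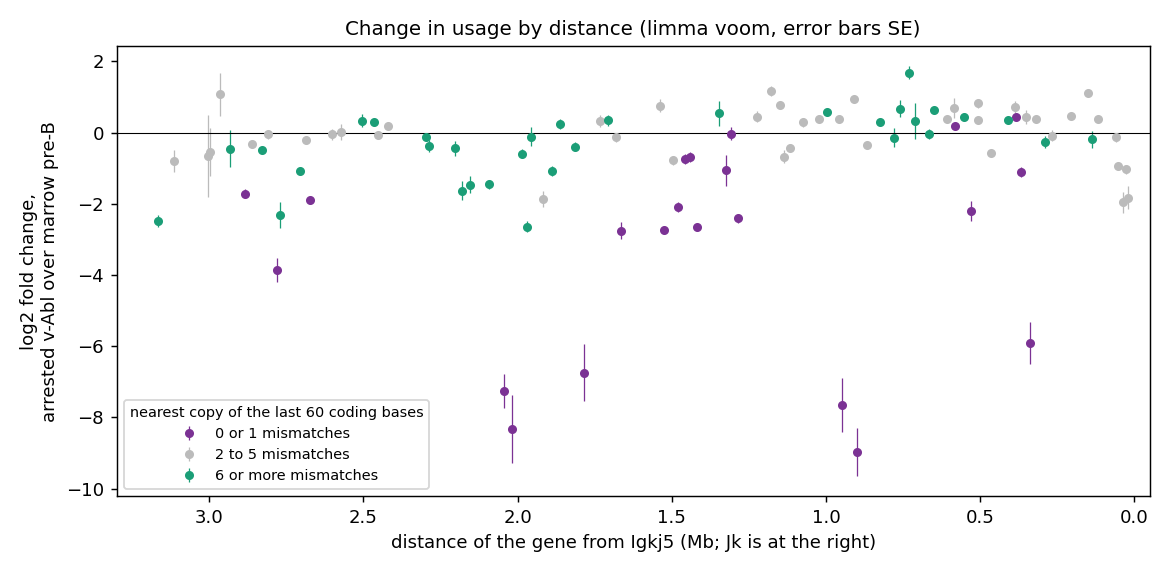
Log2 fold change of each tested Vk gene, arrested v-Abl over marrow pre-B, with its standard error (limma voom, 98 genes), by distance from Igkj5 in Mb, coloured by how many of the last 60 coding bases differ from the nearest other place in the Vk region. The genes with 6 or more differing bases that were called higher lie within 1 Mb of Igkj5 except Igkv14-111, and those called lower lie beyond 1.81 Mb.

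The 34 genes with distinct ends were then taken by zone, a choice made after the values were seen. Of 12 tested in the proximal zone 7 were higher in the arrested line and none lower, of 9 in the middle zone none was higher and 5 lower, and of 12 in the distal zone 1 was higher and 6 lower. The 7 proximal ones, all on the minus strand at 0.409 to 0.997 Mb, were Igkv18-36, Igkv5-37, Igkv6-32, Igkv5-48, Igkv8-27, Igkv8-21 and Igkv5-39, with log2 fold changes of 0.30 to 1.68. Igkv6-32, Igkv5-48, Igkv8-27 and Igkv5-39 among them lost the call with prey alignments of 50 to 90 bases. Over all tested genes 24.5% were called higher and 41.8% lower. The 11 lower ones ran from Igkv4-86 at 1.81 Mb (-0.39) to Igkv2-137 at 3.17 Mb (-2.48). The lowest of them, Igkv4-92 (68705032 to 68705587, minus strand), had 0.159%, 0.127% and 0.157% against 1.06%, 0.922% and 0.828% (log2 fold change -2.64 ± 0.15 SE, voom adjusted p = 3.4e-06). Its nonamer, shown above, matches 7 of 9 bases. Igkv4-92 was listed at 0 in all 4 cycling-titled libraries and held 0.0131% and 0.00856% in the IAA/Dox libraries. Igkv1-122, Igkv12-89 and Igkv12-98 fell by 1.08, 1.09 and 1.46 on the log2 scale.

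Members of 1 family often went both ways. The Igkv8 family, 9 genes in the proximal zone, held 12.4 ± 0.047% in marrow and 16.7 ± 0.43% in the arrested line, with 5 genes higher and 3 lower. The Igkv6 family of 9, also proximal, held 9.95 ± 0.61% and 12.1 ± 0.56%, with 4 higher and 1 lower. The Igkv4 family, the largest with 26 genes, almost all in the middle zone, held 25.9 ± 0.82% and 20.6 ± 1.7%, with 5 higher, 13 lower and 8 not called. Its lowest members were Igkv4-78, Igkv4-73, Igkv4-68, Igkv4-59 and Igkv4-71 beside Igkv4-92, each with 0 or 1 differing bases except Igkv4-92. Igkv4-68, for example, had 0.238%, 0.252% and 0.267% against 1.66%, 1.55% and 1.57%. The 4 Igkv9 genes of the distal zone were all lower, together 0.617 ± 0.0071% against 2.39 ± 0.22%, and 3 of them have a copy that differs in 1 of 60 bases. The 4 Igkv14 genes, also distal, held 4.44 ± 0.090% and 4.44 ± 0.068%, with 1 higher and 1 lower. Igkv1 genes, mostly distal, held 8.65 ± 1.0% and 9.86 ± 0.47% and overlapped between the groups, with 3 of 9 lower and none higher. The background for these counts is 24.5% of all tested genes higher and 41.8% lower.

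By annotation, 94 of the 102 genes are V segments and 6 are V segment pseudogenes in RefSeq. The 6 pseudogenes held 1.65 ± 0.057% of arrested and 2.24 ± 0.13% of marrow Vk-gene junctions, and of 4 tested 2 were called lower, beside 41.8% of all tested genes. Among them Igkv14-126 and Igkv4-56 were lower by 0.48 and 0.67 on the log2 scale.

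Whether junctions outside annotated Vk genes differed depended on how lines were counted. Over all lines they made up 8.78%, 9.17% and 9.31% of Vk-region junctions in the arrested replicates and 10.1%, 8.99% and 9.85% in marrow, and the groups overlapped (means 9.09 ± 0.27% and 9.65 ± 0.59%, exact permutation p = 0.3, n = 3). With each distinct junction counted once they were more frequent in the arrested line, 22.0%, 23.7% and 22.7% against 17.1%, 15.3% and 16.2%, and with each distinct joint counted once they were 14.9% and 13.5% (means), both without overlap (exact permutation p = 0.1, n = 3). By lines they were concentrated. Over the 6 libraries pooled, 96.9% of their lines fell in 30 narrow sites of at least 50 lines each, and 27 of these sites carry an RSS by the same rule. The arrested libraries gave most of those lines, and how distinct junctions spread over positions was not counted. The most used ones are shown with heptamer and nonamer in capitals, in the sense in which they join, all on the minus strand.
chr6:69060895-69060942: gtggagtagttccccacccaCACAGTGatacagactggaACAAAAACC
chr6:69994093-69994161: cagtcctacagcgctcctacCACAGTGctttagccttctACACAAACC
chr6:69829338-69829373: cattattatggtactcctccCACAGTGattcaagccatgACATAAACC

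Each coordinate spans the junctions of the site, and the printed sequence is set on its heptamer. The first site held 2.18%, 2.12% and 2.54% of Vk-region junctions in the arrested replicates and 2.40%, 2.42% and 2.50% in marrow. The second differed, with 1.41%, 1.59% and 1.54% against 0.664%, 0.397% and 0.607%,. The last held 1.32 ± 0.13% and 1.30 ± 0.085%. By the rule that picked them, none of these sites lies within 50 bp of a Vk gene annotated in the release used here. The last overlaps an unannotated stretch that differs in 5 of 60 bases from the end of Igkv12-44. Sites at 69413187, 69631405 and 69581647 overlap stretches that differ in 2, 2 and 1 bases from Igkv4-53, Igkv4-58 and Igkv4-61. Whether such sites are Vk segments missing from the release was not tested. Gene shares and effective numbers leave them out.

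Most listed lines were joints with overlapping bases or with none between the segments in both groups, which did not hold for the distinct joints of the arrested line. Bait and prey alignments overlapped in the read, by bases that both segments could have given, in 50.02%, 51.3% and 51.6% of Vk-gene junctions in the arrested replicates and 46.5%, 47.0% and 46.7% in marrow (means 51.0 ± 0.82% and 46.7 ± 0.27%). Inserted bases were present in 16.5%, 14.6% and 14.5% against 13.6%, 12.96% and 12.7% (means 15.2 ± 1.2% and 13.1 ± 0.45%). Both had an exact permutation p of 0.1 (n = 3, adjusted 0.11). Joints with neither made up the rest, 33.9 ± 0.38% and 40.2 ± 0.37%. Counted once per distinct joint, overlaps were present in 22.4% in the arrested line and 32.2% in marrow, the reverse order, and insertions in 54.4% and 36.4%. Insertions so counted were 26.4% to 30.4% in the cycling-titled libraries, of 318 to 910 distinct joints. They were 46.7% and 44.8% in the IAA/Dox libraries, of 2995 and 3654. The part of library depth in the reversal was not tested.

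**Figure D5:**
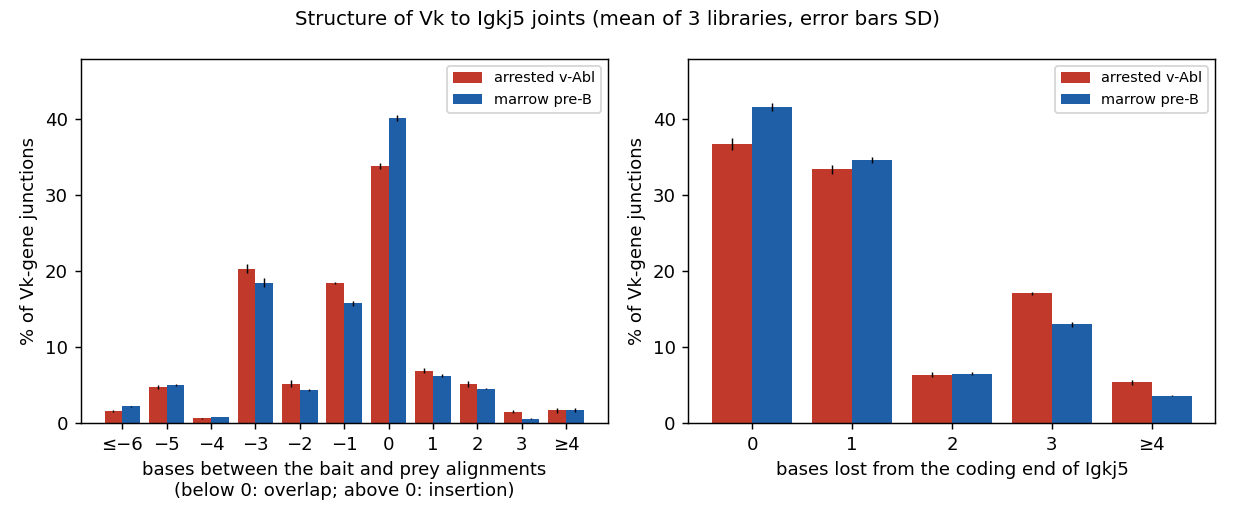
Percent of Vk-gene junctions by the number of bases between bait and prey alignments (left, below 0 for overlap and above 0 for insertion) and by bases lost from the coding end of Igkj5 (right), means of 3 libraries with SD for arrested v-Abl and marrow pre-B. Joints with 0 bases between are 33.9% in the arrested line and 40.2% in marrow, and overlaps of 3 bases are 20.4% and 18.5%.

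The trimming of both ends differed between the groups by a few percentage points. Igkj5 kept its whole coding end in 36.8 ± 0.79% of arrested and 41.6 ± 0.54% of marrow joints, lost 1 base in 33.4 ± 0.55% and 34.7 ± 0.37%, and lost 3 bases in 17.1 ± 0.24% and 13.02 ± 0.30%. Vk genes kept their whole end in 31.5 ± 0.45% and 25.8 ± 0.38% and lost 3 bases in 19.9 ± 0.36% and 23.7 ± 0.41%. Where bases overlap, their origin cannot be assigned, so losses on the 2 sides are not independent.

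Single joints recurred. The most frequent joint of 6 genes in the arrested line or marrow is shown as V then J sequence of the reference, with the bases shared by both segments in capitals, or, in joints without overlap, with the Jk part in capitals.
Igkv8-24, both groups: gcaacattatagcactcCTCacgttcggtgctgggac
Igkv8-27, both groups: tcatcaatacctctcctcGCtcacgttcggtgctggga
Igkv18-36, both groups: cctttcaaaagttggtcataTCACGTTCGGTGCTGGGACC
Igkv2-137, both groups: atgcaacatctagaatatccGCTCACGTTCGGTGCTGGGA
Igkv3-7, arrested: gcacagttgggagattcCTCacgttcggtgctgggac
Igkv3-7, marrow: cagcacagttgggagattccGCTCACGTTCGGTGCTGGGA
Igkv6-32, arrested: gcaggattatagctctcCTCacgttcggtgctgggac
Igkv6-32, marrow: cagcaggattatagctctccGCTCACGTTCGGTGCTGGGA

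The CTC joints shown were out of frame, and the joints shown with the whole Igkj5 end after a Vk end shortened by 3 bases were in frame. For Igkv8-24 the CTC joint made up 23.6%, 24.9% and 25.6% of its junctions in the arrested replicates and 25.8%, 30.2% and 28.5% in marrow. For Igkv8-27 the GC joint, in frame, made up 40.01% and 40.4% (means). For Igkv3-7 the leading joint was the CTC joint in the arrested line (27.3%) and the in-frame joint in marrow (30.4%). Igkv6-32 likewise led with CTC in the arrested line (20.8%) and with the in-frame joint in marrow (34.0%). Of 17 named genes with at least 20 junctions in each group, 11 had the same leading joint in both.

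Reading frame was added after the data were seen. Joints in frame with the coding sequence of the Vk gene made up 42.9%, 43.1% and 42.7% of those that could be read in the arrested replicates and 43.5%, 43.3% and 43.7% in marrow (means 42.9 ± 0.20% and 43.5 ± 0.18%, exact permutation p = 0.1, n = 3). Counted once per joint the means were 33.5% and 33.2%, overlapped, and turned in order. Deletional joins were in frame in 40.6 ± 0.72% of arrested and 44.4 ± 0.46% of marrow lines, and inversional ones in 44.1 ± 0.49% and 43.0 ± 0.25%.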

How the data were processed

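Deposited lists hold 1 junction per line, with chromosome, position, strand and alignment ends, per the file headers. These are positions with no normalization (unit: other). Reads were aligned with Bowtie2 to mm9, per the submitters' processing notes, and read filters and their settings are not given in the sources used here. Junctions per Vk gene were counted here (GENCODE vM1 on mm9, gene with 50 bp on either side, Igkv names and 2 further IG V genes), so repeated lines count each time. RefSeq (GRCm38.p6) gave biotypes only, matched by symbol for 100 of 102 genes.

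Each of 11 measures, 1 value per library, was tested by a two-sided exact permutation test with Benjamini-Hochberg adjustment. For genes, R 4.3.3 and limma 3.58.1 (voom weights and moderated linear fits) were used on the counts, with junctions in Vk genes as library size, at least 10 junctions over 6 libraries and an adjusted p under 0.05. On simulated counts for this comparison (97 genes, 10 changed per fold size), 70% of changes of 1.5-fold, 90% of 2-fold and 100% of 4-fold were recovered, and 2 of 67 unchanged genes were called. The simulation gave all genes a spread between libraries of 0.15 (natural log), without repeated lines or read-length effects. The real spread was larger at some genes, such as Igkv1-133 (SD 65.3% of the arrested mean), so these rates may not carry over. Other work used Python 3.11.15, pandas 2.3.3, numpy 2.4.6, scipy 1.17.1 and matplotlib 3.10.9. Wilson intervals are at 95% and take lines as independent. The coding end of each gene was compared over 60 bases with every place in the region.

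The genes named are the 8 most used in each group, the 5 with the largest change in each direction among genes called without overlap, and the 2 nearest to and 2 farthest from Jk. Others were named after their values were seen. The members, lists and measures were chosen with earlier results of these data known. Same-numbered libraries did not deviate together (correlations 0.12, -0.064 and 0.13), and no label pairs them. No libraries shared read names, and all were kept. A chi-square test of gene counts between same-group libraries gave p-values up to 1.4e-15. It takes repeated lines as independent, which is not shown. These p-values may thus be too small, and a difference beyond counting error is not shown by them. Alternatives were library size, filters, windows, distinct junctions counted once, other tests, left-out libraries and a replicate block. Added after seeing the data were distinct joints counted once, prey alignments of 50 to 90 bases, and genes without a near copy.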

Additional observations from a re-analysis of the deposited data

Results flagged for a closer look

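Chance marks about 1 in 20 groups of this size, and 11 measures were examined in the 4 cycling-titled v-Abl libraries, the single group large enough. In 1 library the median distance between bait and Vk junction was 1.44 Mb, against 1.14 to 1.18 Mb in the other 3. In another, 24.0% of Vk-gene junctions held inserted bases, against 19.0% to 19.6% in the others. These libraries have 584 to 3973 Vk-region junctions, and neither value enters the comparison of arrested v-Abl and marrow pre-B.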

How the results depend on the processing

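Differences are arrested minus marrow in percentage points, and the cause of each change was not tested. With each distinct junction counted once, the deletional share turned from -3.31 to 2.17, the share outside annotated Vk genes from -0.57 to 6.63 and the Vk share of junctions beyond Jk from 0.11 to -0.36. With each distinct joint counted once, the last 2 came to 1.41 and -0.19, overlap joints turned from 4.23 to -9.81 and in-frame joints from -0.64 to 0.36. With prey alignments of 50 to 90 bases the share outside genes turned to 0.30. Of 65 genes called, the alternatives gave 35 with each distinct junction counted once (31 shared), 35 with prey alignments of 50 to 90 bases (34 shared, 8 higher and 27 lower) and 19 among 33 genes without a near copy, where fewer genes were tested. The quasi-binomial model gave 52, limma-trend 71, and leaving out 1 library gave 54 to 72. The proximal, middle and distal zones, the median distance and the effective number of genes kept their direction under every alternative run. A replicate block gave 72 calls (30 higher, 42 lower) that included all 65, and the paired sign-flip test of the measures cannot go below an exact p of 0.25. For the 22 named genes, 367 of 399 alternative fits kept call and direction, 32 lost the call and none turned. The 399 leave out fits in which a gene was not tested. Left out are the fits with prey alignments of 50 to 90 bases for Igkv5-43, Igkv5-45 and Igkv13-84, which had too few junctions there. The 5 genes named in each direction were chosen as called, so kept calls are partly built in. No run held both groups, so no within-run value could be had. If lines were independent, a gene with no junction could hold up to 0.0168% in the shallowest marrow library and 0.0024% in the deepest arrested one. As repeated lines may be copies of 1 event, these limits may be too low.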
